A study of Canis lupus familiaris with 34 samples.

Results

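Mast cell tumours (MCTs) of bulldog-mastiff type dogs were compared with MCTs of retrievers, 22 of the 34 tumours of the series. The 7 bulldog-mastiff type tumours came from 4 Boxers (B1 to B4), 1 Dogue de Bordeaux (D1) and 2 Staffordshire Bull Terriers (SBT1 and SBT2). The 15 retriever tumours came from 10 Labrador Retrievers (LR1 to LR10), 4 Golden Retrievers (GR1 to GR4) and 1 Curly Coated Retriever (CCR1). Tumours were assigned by the breed and dog identifier in the sample labels, and the 12 tumours of other breeds entered no group. Each tumour was a primary cutaneous MCT from a different dog, excised, fixed in formalin and embedded in paraffin, and was labelled as metastasising (M) or non-metastasising (NM). RNA was measured on canine gene arrays, which give 1 log2 value per Transcript cluster, the array's unit for a gene. Of the bulldog-mastiff type MCTs, 3 were M and 4 were NM, and of the retriever MCTs, 9 were M and 6 were NM. The 7 bulldog-mastiff type dogs were 2 to 10 years old (median 5), 4 female and 3 male, and 4 of them were neutered. The 15 retrievers were 3 to 10 years old (median 6), 4 female and 11 male, and 8 of them were neutered. Dogs of a breed share ancestry, Boxers and Labradors make up most of their types, and the label of a breed cannot be checked from expression.

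Dog breeds are closed populations with large differences in inherited traits, and several of them develop MCTs more often than others. Boxers and other bulldog-mastiff type breeds are known for frequent MCTs that tend to follow a mild course, while Labrador and Golden Retrievers are also over-represented among affected dogs. Short skulls, coat colours, hair types and body size in dogs have been traced to variants in few genes, and inherited MCT risk in Golden Retrievers has been mapped to regions that hold hyaluronidase genes and GNAI2. Mast cells are tissue leukocytes that carry the receptor tyrosine kinase KIT and the high-affinity IgE receptor and store proteases, histamine and heparin in granules.

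The arrays of both types covered a similar range of spread. The SD of the values of an array was 1.00 to 1.32 (median 1.17) in bulldog-mastiff type MCTs and 1.03 to 1.33 (median 1.22) in retriever MCTs. The median correlation of an array with the other arrays of the whole series was 0.73 to 0.877 and 0.765 to 0.878. This correlation was lowest of the 22 in the Boxer tumours B4 (0.73) and B1 (0.743). The values that rest on B1 and B4 are therefore also given without them. The next lowest array, that of the retriever tumour LR9 (0.765), stayed in, so these fits drop low arrays from the bulldog-mastiff type only. The median correlation of the arrays of a pair of tumours was 0.824 over 21 pairs of bulldog-mastiff type MCTs, 0.84 over 105 retriever pairs and 0.83 over 105 mixed pairs. Of 27 mast cell markers, 17 were tested, and the others had no cluster of that single symbol or were below the level filter. Of the 17, 9 to 15 lay above the median of all values (1.84) in bulldog-mastiff type MCTs against 10 to 17 in retriever MCTs. KIT was above this level in 21 of the 22 tumours and the chymase gene CMA1 in all 22, whereas FCER1A, the IgE-binding chain of the receptor, was above it in 13 and the tryptase genes were not analysed here. The arrays' spread and correlation and the mast cell content of the tumours therefore vary alongside the comparison, and their part in it was tested only as far as values with them as covariates are given.

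No Transcript cluster was called different between the breed types. With the metastasis group as covariate, limma called 0 of 19246 clusters at an adjusted p under 0.05 (0%), and the smallest adjusted p was 0.881. At an unadjusted p under 0.05 limma gave 991 clusters, 5.15% of those tested, where 5% is 962.3 clusters. Of these, 503 (2.61%) were higher and 488 (2.54%) lower in bulldog-mastiff type MCTs. The methods' t-test also left 0 clusters after Benjamini-Hochberg adjustment, with 781 at an unadjusted p under 0.05. The values of the 7 tumours overlapped those of the 15 in every cluster tested (0% without overlap). The median size of a difference was 0.12 on the log2 scale, and the median half-width of its 95% interval was 0.31 (5th to 95th percentile, 0.18 to 1.07), so differences of that size could not be detected in most clusters. Among clusters with differences over 1, 322 were lower and 51 higher in bulldog-mastiff type MCTs. Clusters with a mean level over 6 had a median difference of -0.37 (n = 479), and 61.8% of them had the lower mean in bulldog-mastiff type MCTs, whereas the medians of clusters at lower levels lay between -0.04 and 0.02.

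**Figure D1:**
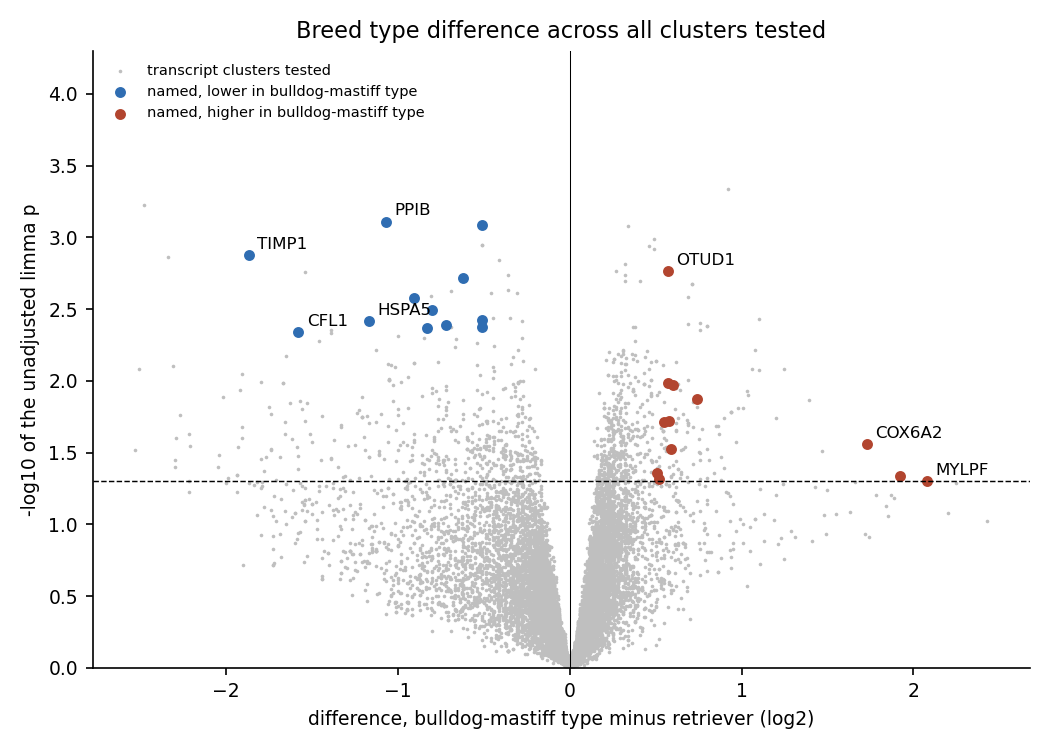
Each point is a Transcript cluster, with its difference on the log2 scale (x axis) and the -log10 of its unadjusted limma p (y axis); the dashed line marks p of 0.05. Coloured points are the 12 named genes of each direction, all with an adjusted p of 0.881.

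The cluster with the smallest p had no gene symbol (cluster 14476049). It lay at 2.71 to 3.87 (median 2.89) in bulldog-mastiff type MCTs and at 1.10 to 3.04 (median 2.32) in retriever MCTs. All 7 values exceeded the retriever median, while LR9 (3.04), LR5 (2.88) and CCR1 (2.76) reached into their range. The difference was 0.92 ± 0.22 (SE), with a limma p of 0.000463 and an adjusted p of 0.881. It was named because its p was the smallest of all.

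Among genes with a difference of at least 0.5, the 12 with the smallest p on the lower side included proteins of the secretory pathway, the cytoskeleton and the nucleus. PPIB encodes cyclophilin B, a proline isomerase of the endoplasmic reticulum that acts on folding collagen. Its level was 4.00 to 5.47 (median 4.78) in bulldog-mastiff type MCTs and 4.93 to 6.87 (median 5.83) in retriever MCTs. All 7 tumours lay below the retriever median, with D1 (4.00) and B1 (4.24) lowest, and SBT1 (5.47), B2 (5.33) and SBT2 (5.32) within the lower retriever values. The difference was -1.07 ± 0.27 (SE; 95% interval -1.64 to -0.50), and in the exact permutation test within M and NM MCTs the two-sided p was 0.00147. Its adjusted p in limma was 0.881, as it was for all 24 genes named for their small p in either direction. Without B1 and B4 the difference of PPIB was -0.92. The exact p-values given for any of these 24 belong to genes picked as the extremes of 10471, so they carry no weight beyond the adjusted p. KIT and SMOC2, whose exact p-values are given below, were named whatever their values.

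HSPA5 encodes BiP, the main chaperone of the endoplasmic reticulum. Its level was 2.55 to 3.53 (median 2.99) against 2.97 to 6.12 (median 4.01). All 4 Golden Retriever tumours were above the 7 bulldog-mastiff type tumours, at 3.57 (GR4) to 6.12 (GR3), whereas the Labrador tumours LR1 (3.12), LR4 (2.97), LR8 (3.01) and LR9 (3.15) lay among them. The difference was -1.17 ± 0.36 (SE), with an exact permutation p of 0.00723, and -1.04 without B1 and B4. TIMP1 encodes an inhibitor of matrix metalloproteinases. It stood at 2.57 to 5.24 (median 4.08) and at 3.69 to 7.80 (median 5.45). B1 (2.57) and B4 (2.60) were lower than any retriever tumour, and the other 5 fell within the retriever range. The difference of TIMP1 was -1.87 ± 0.51 (SE; 95% interval -2.93 to -0.82), a level 3.66-fold lower, and without B1 and B4 it was -1.38.

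DPYSL2, a microtubule-binding protein, had 2.51 to 3.28 (median 3.04) against 2.69 to 3.97 (median 3.38) and the lowest exact permutation p of the named genes, 0.000823. Its difference was small at -0.51 ± 0.13 (SE), and all 7 values lay below the retriever median but only B1 (2.51) and SBT1 (2.63) below the lowest retriever tumour, LR1 (2.69). CFL1 encodes cofilin, which severs actin filaments. Its level was 2.15 to 5.99 (median 4.91) against 4.42 to 7.25 (median 6.30), with B4 (2.15), D1 (2.72) and B1 (3.99) below all retriever tumours. The difference was -1.58 ± 0.50 (SE), and -1.08 without B1 and B4. The other 7 lower genes had differences from -0.51 to -0.91. They were PFKP (-0.62), a phosphofructokinase of glycolysis, ARF4 (-0.80), a small GTPase of vesicle traffic, LMNA (-0.83), which encodes the nuclear lamins A and C, the histone genes H2BC21 (-0.91) and H1-2 (-0.51), the 14-3-3 gene YWHAB (-0.51), and LOC100856547 (-0.72). In every alternative fitted, these 12 kept the lower mean in bulldog-mastiff type MCTs.

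PPIB and HSPA5 had their highest medians in the Golden Retriever tumours. The median of PPIB was 6.74 in the 4 Golden and 5.80 in the 10 Labrador tumours, against 4.71 in the 4 Boxer tumours. For HSPA5 the medians were 5.34, 3.59 and 2.99. Without the 10 Labrador tumours, when 5 retriever tumours remained, 2769 clusters (14.4%) were at an unadjusted p under 0.05 and the smallest adjusted p was 0.0613, still with 0 called. Without the 4 Golden tumours, 570 clusters (2.96%) were at that p. The retriever breeds were not tested against each other here.

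**Figure D2:**
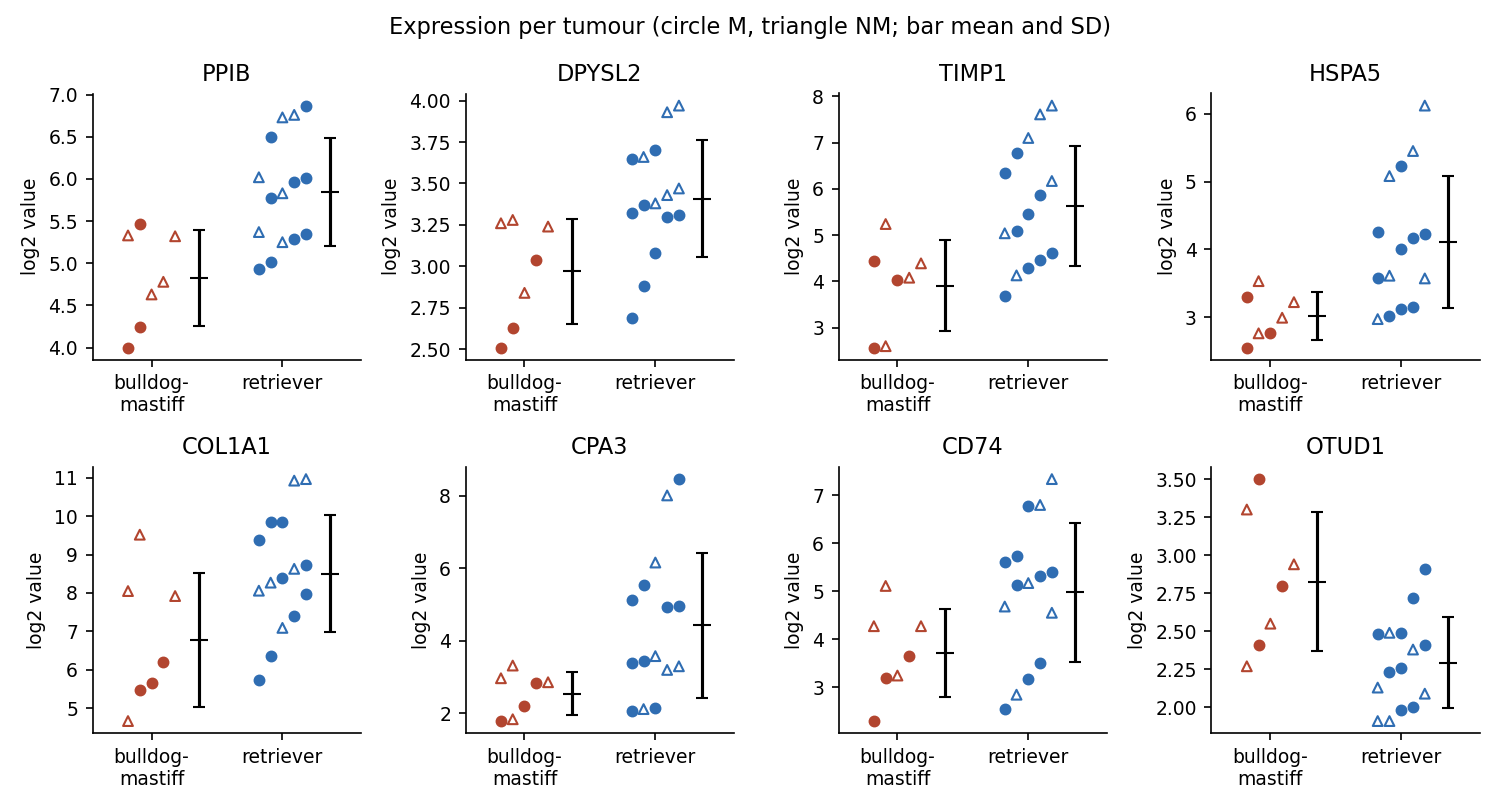
Log2 values (y axis) of 8 genes in each of the 7 bulldog-mastiff type and 15 retriever MCTs, with M MCTs as circles, NM MCTs as triangles, and the mean and SD of each type as a bar. The ranges of the types overlap for every gene, including PPIB (4.00 to 5.47 against 4.93 to 6.87) and OTUD1 (2.27 to 3.50 against 1.91 to 2.91).

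On the higher side, 7 of the 12 named genes are known from striated muscle. The gene with the smallest p, OTUD1, is not one of these. It encodes a deubiquitinase and lay at 2.27 to 3.50 (median 2.80) in bulldog-mastiff type MCTs and at 1.91 to 2.91 (median 2.26) in retriever MCTs. D1 (3.50), SBT2 (3.30) and B2 (2.94) were above every retriever tumour and the other 4 were within the range. The difference was 0.57 ± 0.16 (SE), with an exact permutation p of 0.00255. PILRA, an inhibitory receptor of myeloid cells, had 2.91 to 4.62 (median 3.76) against 2.63 to 3.71 (median 3.09). Its difference was 0.57 ± 0.20 (SE). CRSP-2, the gene of a calcitonin receptor-stimulating peptide, owed its mean to SBT1 (4.33), since the other 6 tumours had 1.66 to 2.58 and the retriever tumours 1.61 to 2.89. Its unadjusted limma p was 0.0191, and 0.119 without SBT1. TMEM169 (0.59) and the forkhead gene FOXE3 (0.51) completed the genes outside muscle.

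The muscle genes were COX6A2 (a cytochrome c oxidase subunit of heart and skeletal muscle), TNNT3 (fast troponin T), MYLPF (a fast myosin light chain), MYOM3 (a protein of the sarcomere M band), MYOZ3 (a Z-disc protein), SMTNL1 and HSPB7. COX6A2 had 3.00 to 8.02 (median 4.36) against 2.64 to 8.80 (median 3.34), with a difference of 1.73 ± 0.73 (SE). MYLPF was at 8.49 in D1, 7.67 in SBT2, 7.17 in B2 and 9.19 in CCR1, and in the other 18 tumours of the comparison it did not exceed 2.73. Its difference was 2.08 ± 1.00 (SE; 95% interval 0.00 to 4.16), with an unadjusted limma p of 0.0498 that was 0.196 without D1. In the 12 tumours of other breeds, MYLPF ran from 1.72 to 4.10 (median 1.97).

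The whole list of skeletal muscle genes showed the same tumours. Of 33 listed genes 25 were tested, all 25 had the higher mean in bulldog-mastiff type MCTs, where 49.8% of the 10471 genes tested did, and the median difference was 1.49 against 0 over all genes. None was called by limma, and 2 (TNNT3 and MYLPF) were at an unadjusted p under 0.05, where 2.2% of all genes were higher at that p. The mean level of the list was 7.32 in D1, 6.88 in SBT2, 5.44 in B2 and 8.39 in CCR1. It was 3.20 in LR7 and 1.97 to 2.44 in the other 17 tumours. High values thus stood in 3 of 7 bulldog-mastiff type MCTs, 1 from each of the breeds, and in 1 of 15 retriever MCTs. Of the 25 genes, 19 to 25 were above 1.84 in bulldog-mastiff type MCTs and 14 to 25 in retriever MCTs. Myoglobin (MB), the oxygen store of muscle, had the largest difference of the list (2.25 ± 1.09, SE), with 1.89 to 8.83 (median 2.11) in bulldog-mastiff type MCTs. Without these 4 tumours, chosen after seeing their values, the median of the list was 0.04, with 13 of 25 means higher. Without B1 and B4 it was 2.15, with 17 of 25 members at an unadjusted p under 0.05. With the SD of the array as covariate it was 1.97, also with 17 at that p, and with the keratinocyte score 1.70, with 11. In bulk samples a larger share of a cell type and more of its RNA per cell cannot be told apart.

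These 4 tumours also bore on other genes. Without them, 2065 clusters were at an unadjusted p under 0.05 and OTUD1 had a difference of 0.26 with an unadjusted limma p of 0.106. PILRA (0.31) and COX6A2 (0.45) were also smaller there, whereas PPIB (-1.11), TIMP1 (-2) and HSPA5 (-1.17) were not. With the muscle score as covariate, 1884 clusters were at that p. In both settings 0 clusters were called.

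**Figure D3:**
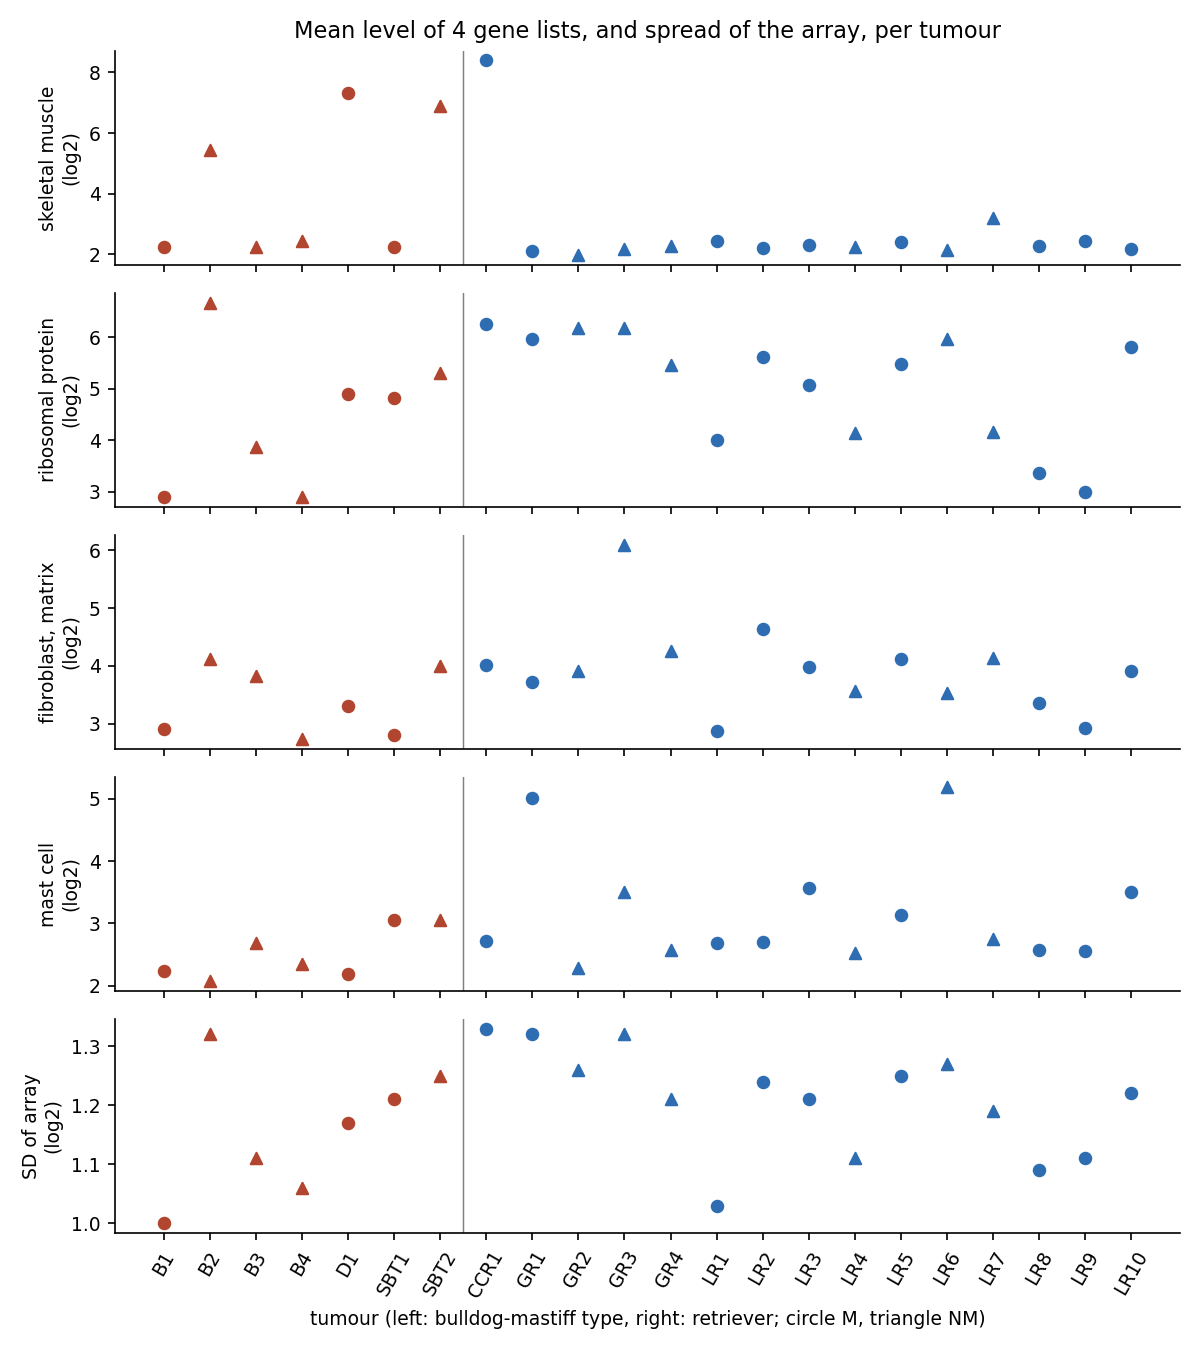
Mean log2 level of 4 gene lists and, in the bottom panel, the SD of the array (y axes) for each tumour (x axis), with M MCTs as circles and NM MCTs as triangles. Muscle genes are high in D1, SBT2, B2 and CCR1, and the ribosomal protein level is lowest in B1 and B4 (2.89 each).

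Matrix genes had lower means in bulldog-mastiff type MCTs. All 30 tested genes of the fibroblast and matrix list had the lower mean, where 50.2% of all genes did, and their median difference was -0.49. None was called by limma, and 6 were lower at an unadjusted p under 0.05, where 2.95% of all genes were. COL1A1, a chain of type I collagen, was at 4.66 to 9.52 (median 6.21) in bulldog-mastiff type MCTs and at 5.73 to 10.97 (median 8.38) in retriever MCTs. B4 (4.66), SBT1 (5.48) and D1 (5.64) were below the lowest retriever tumour, LR1 (5.73), whereas B3 (9.52) was above the retriever median. The difference was -1.91 ± 0.67 (SE; 95% interval -3.30 to -0.53). COL1A2, the other chain of type I collagen, differed by -1.80 ± 0.64, and SPARC, a collagen-binding protein of the matrix, by -1.56 ± 0.59. COL6A3 (-0.97), BGN (-1) and COL3A1 (-1.28) were the other members at that p. The mean level of the list was 2.73 to 4.12 (median 3.30) against 2.87 to 6.10 (median 3.92). Without B1 and B4 the median difference was -0.33, with 28 of 30 means lower and 1 member at an unadjusted p under 0.05. COL1A1 had a difference of -1.45 there. With the muscle score as covariate the median was -0.66, with 11 of 30 members lower at that p. Without the 4 tumours richest in muscle genes it was -0.69, with 9 lower at that p. Of all clusters, 9.79% and 10.7% were at that p in either direction in these fits.

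Mast cell genes were lower on average in bulldog-mastiff type MCTs, and their range was narrower. Of the 17 tested markers 16 had the lower mean, where 50.2% of all genes did, with a median difference of -0.45, and limma called none. At an unadjusted p under 0.05, 3 were lower and 1 was higher, where 2.95% and 2.2% of all genes were. CPA3, the mast cell carboxypeptidase, was at 1.79 to 3.32 (median 2.84) in bulldog-mastiff type MCTs and at 2.07 to 8.46 (median 3.58) in retriever MCTs. GR1 (8.46), LR6 (8.01) and GR3 (6.16) carried the upper end, and 3 retriever tumours had values below 2.84. The difference was -1.91 ± 0.77 (SE), with an unadjusted limma p of 0.021 and an adjusted p of 0.881. CMA1, the chymase, had 1.88 to 3.88 (median 2.76) against 2.35 to 7.61 (median 3.67), a difference of -1.35 ± 0.62. CD63, a tetraspanin of granule membranes, differed by -1.18 ± 0.46. ADCYAP1, a neuropeptide gene on the list, had the higher mean by 0.25. The mean level of the markers was 2.07 to 3.06 (median 2.35) against 2.29 to 5.2 (median 2.72).

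KIT itself was at 1.73 to 3.89 (median 2.23) in bulldog-mastiff type MCTs and at 2.12 to 5.46 (median 2.63) in retriever MCTs. SBT2 (3.89) and SBT1 (3.78) had the highest values among the 7, and the 4 Boxer tumours lay at 1.96 to 2.51. The difference was -0.39 ± 0.45 (SE; 95% interval -1.32 to 0.55), with an exact permutation p of 0.443, so neither no difference nor a level lower by 1 can be set aside. Genes of signalling downstream of KIT had a median difference of -0.03 over 20 tested members, with 0 of them at an unadjusted p under 0.05. Of the genes of high-affinity IgE receptor signalling 10 of 11 had the lower mean (median -0.27), where 50.2% of all genes did. FCER1A differed by -1.08 ± 0.69 and MS4A2, the receptor's beta chain, by -0.88 ± 0.54, and 0 of the 11 were at that p. Among mediators of mast cells, the monocyte chemoattractant CCL2 (-1.24 ± 0.48) and LTA4H (-0.28 ± 0.11), an enzyme of leukotriene synthesis, were at that p, 2 of 14. Of all genes, 2.95% were lower at that p. Without B1 and B4, 16 of the 17 mast cell markers still had the lower mean (median -0.40) and 0 were at an unadjusted p under 0.05, and CPA3 had a difference of -1.89.

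Genes of antigen presentation had lower means in bulldog-mastiff type MCTs as well. All 8 tested genes of the major histocompatibility complex (MHC) class II list did (median -0.36), where 50.2% of all genes did, and 3 of them were lower at an unadjusted p under 0.05, where 2.95% of all genes were. CD74, the invariant chain that guides class II molecules, was at 2.29 to 5.11 (median 3.65) against 2.55 to 7.34 (median 5.17), with B1 (2.29) lowest and B2 (5.11) highest of the 7. Its difference was -1.37 ± 0.57 (SE). DLA-DRA, the class II alpha chain, differed by -1.58 ± 0.69 and DLA-DQA1 by -0.78 ± 0.36. CIITA, the activator of class II transcription, had a difference of -0.04. In the MHC class I list 9 of 13 had the lower mean (median -0.12), against the same 50.2%, and 4 were lower at that p, against the same 2.95%. These 4 were PDIA3 (-1.23), CALR (-1.10), DLA88 (-1.13) and DLA-64 (-0.71), while the peptide transporter genes TAP1 (-0.12) and TAP2 (0.14) and the immunoproteasome genes PSMB8 (0.12) and PSMB9 (-0.08) lay near 0. PDIA3 and CALR are, like HSPA5 and PPIB, chaperones of the endoplasmic reticulum. Values of the DLA genes are uncertain, because they resemble each other and differ in sequence between dogs. Without B1 and B4, 0 of the 21 genes of both MHC lists were at an unadjusted p under 0.05, and CD74 had a difference of -1. Interferon response genes had a median difference of 0.04 over 12 tested, with 0 at that p.

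Ribosomal protein genes had the lowest median difference of the 40 lists, -0.73, and 58 of 59 had the lower mean, where 50.2% of all genes did. However, limma called none, and 1 (RPL35A, -0.77 ± 0.30) was lower at an unadjusted p under 0.05, where 2.95% of all genes were. The mean level of the list was 2.89 to 6.67 (median 4.81) in bulldog-mastiff type MCTs and 3.00 to 6.25 (median 5.47) in retriever MCTs. The lowest values were those of B1 and B4 (2.89 each), LR9 (3.00) and LR8 (3.36), and the highest was that of B2 (6.67). B1, B4, LR9 and LR8 had array SDs of 1.00, 1.06, 1.11 and 1.09 and median correlations with the other arrays of 0.743, 0.73, 0.765 and 0.798. However, GR2 also had a median correlation of 0.798 but a ribosomal level of 6.18. LR1 had an array SD of 1.03 and a ribosomal level of 4. Without B1 and B4 the median difference was -0.06, with 38 of 59 means lower, and with the SD of the array as covariate it was -0.08. It was larger in other settings. Without the 4 tumours richest in muscle genes the median was -1.51, with 36 of 59 members lower at an unadjusted p under 0.05. With the muscle score as covariate it was -1.19, with 18 at that p. In these fits 10.7% and 9.79% of all clusters were at that p in either direction. The ribosomal difference thus ran from near 0 to -1.51 with the tumours and covariates used, and in none of these fits was a member called. Over all clusters, 620 were at an unadjusted p under 0.05 without B1 and B4, 147 of them lower and 473 higher. With the SD of the array as covariate, the median difference of the fibroblast and matrix list was -0.25, with 3 members at an unadjusted p under 0.05, that of the mast cell list -0.31, with 1, and that of the MHC class II list -0.21, with 0. In that fit CPA3 had a difference of -1.43, CD74 of -0.81 and COL1A1 of -1.65, and in no fit was any of them called.

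**Figure D4:**
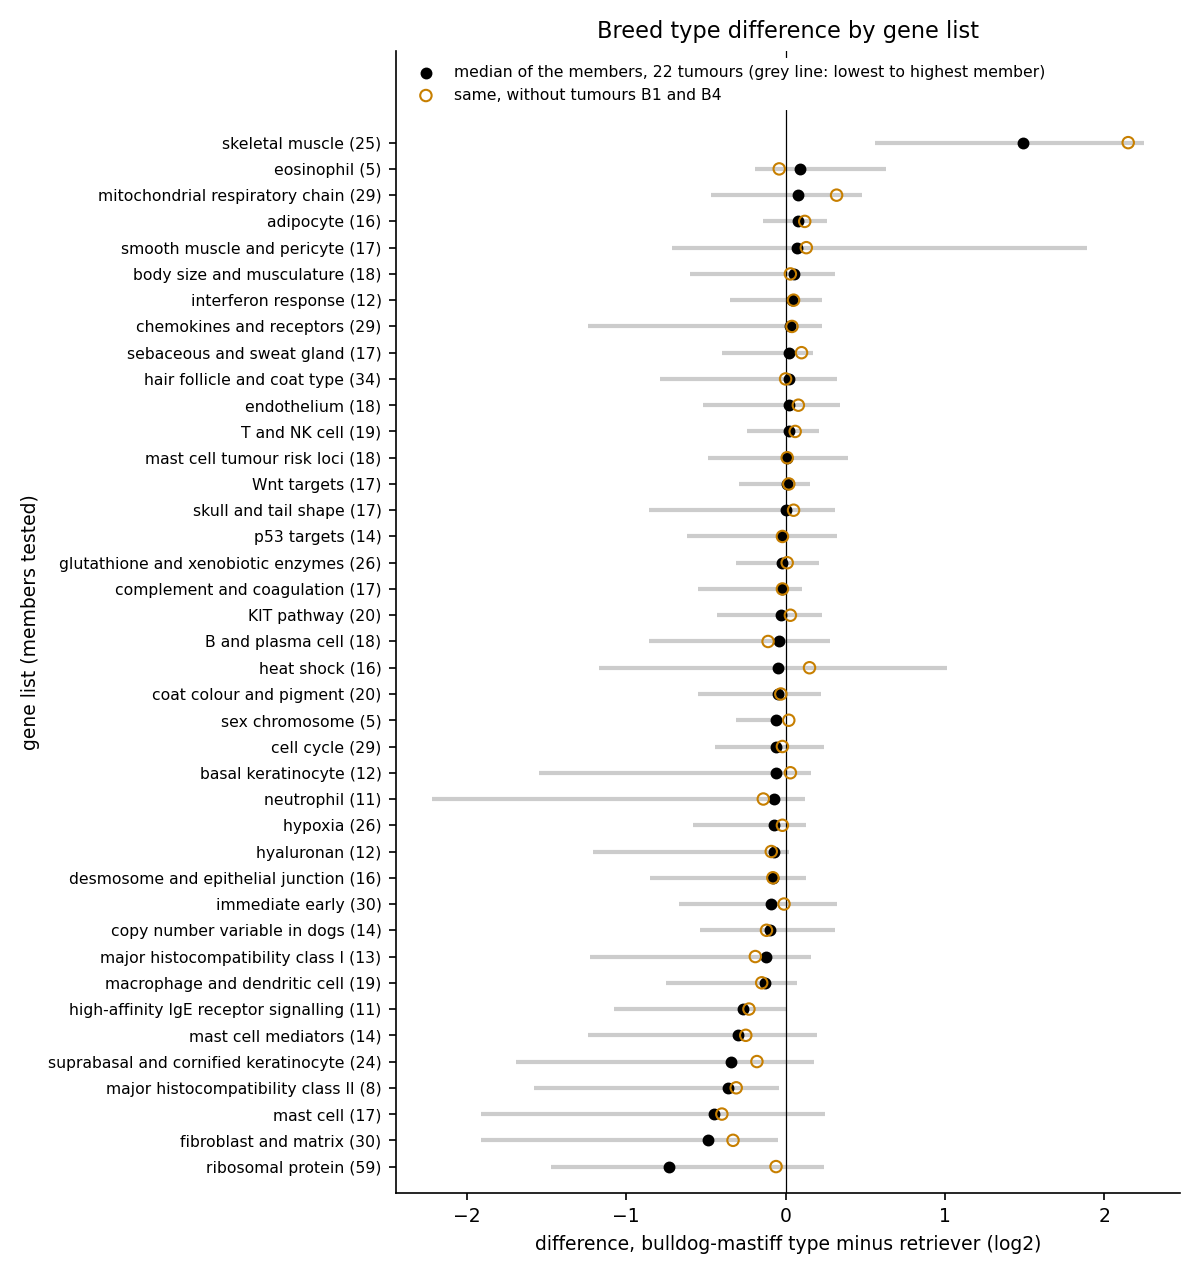
For each of 40 gene lists (y axis, with the number of members tested), the median difference between bulldog-mastiff type and retriever MCTs on the log2 scale (x axis; filled points), the lowest to the highest member (grey line) and the median without B1 and B4 (open points). The ribosomal protein list moves from -0.73 to -0.06, and the fibroblast and matrix list from -0.49 to -0.33.

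Other cell types showed smaller or less even differences. Over all genes tested, 50.2% had the lower mean, and 2.95% were lower at an unadjusted p under 0.05. Genes of suprabasal and cornified keratinocytes had a median difference of -0.34, with 19 of 24 means lower and 2 (TGM3, -0.30, and LORICRIN, -0.75) at an unadjusted p under 0.05, but B2 had the highest mean level of the 22 tumours (4.73) while the other 6 of its type had 2.22 to 3.20 and the retriever tumours 2.23 to 4.29. Among neutrophil genes S100A9, a calcium-binding protein of neutrophils and inflamed epidermis, was at 1.36 to 3.24 (median 1.88) against 1.62 to 9.05 (median 2.05), a difference of -2.22 ± 1.07 (SE). LR2 (7.77), LR5 (8.18), GR3 (8.77) and LR6 (9.05) were high and the other 11 retriever tumours did not exceed 4.11. S100A9 was the only one of the 11 tested neutrophil genes at an unadjusted p under 0.05. The median difference of the list was -0.07, and 4 of the 11 had the higher mean. Lists of T and NK cells (0.02), endothelium (0.02), adipocytes (0.08) and sebaceous and sweat glands (0.02) had median differences near 0, and the endothelial gene PLVAP (-0.52) was the only one of their members at an unadjusted p under 0.05. Of the macrophage and dendritic cell genes 16 of 19 had the lower mean (median -0.13), with 1 at that p. Of the plasma cell genes XBP1 (-0.40) and JCHAIN (-0.66) were at that p, 2 of 18 in the B and plasma cell list.

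Genes behind traits that set these breeds apart were not called different in the tumours. Of 232 genes listed for skull and tail shape, body size, coat colour, hair, MCT risk loci, copy number variation and the MHC, 137 were tested, 45 were below the level filter and 50 had no cluster of that single symbol. Limma called none, and 13 (9.49%) were at an unadjusted p under 0.05, 7 of these from the MHC lists. In the lists for risk loci, skull and tail shape, body size and coat colour it was 3 of 71 genes (4.23%), against 5.15% of all genes. The median size of a difference over the 137 genes was 0.12, the same as over all clusters, and the median half-width of their 95% intervals was 0.34.

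The 3 genes were DISP1, FGF4 and SMOC2. SMOC2, a matricellular protein gene in which a variant has been tied to short skulls in dogs, was at 1.61 to 2.47 (median 2) in bulldog-mastiff type MCTs and at 1.65 to 3.61 (median 2.21) in retriever MCTs. GR3 (3.61) was the highest and the other tumours of both types mixed. The difference was -0.38 ± 0.17 (SE; 95% interval -0.73 to -0.03), with an exact permutation p of 0.0328 and an adjusted limma p of 0.881. DISP1, which releases Hedgehog ligands from cells, was at 1.62 to 2.18 (median 2.01) against 1.28 to 1.95 (median 1.76), with 4 tumours above every retriever value. Its difference was 0.27 ± 0.11. FGF4, a fibroblast growth factor whose retrocopies shorten limbs in dogs, was at 2.38 to 2.95 (median 2.68) against 1.75 to 2.76 (median 2.48), a difference of 0.31 ± 0.14. DISP1 thus lay close to the level filter of 1.84 in both types. BMP3, another gene tied to skull shape, was below the level filter, and DVL2, tied to the screw tail of bulldogs, was not analysed here.

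Of 18 tested genes in MCT risk regions 0 were at an unadjusted p under 0.05 (median 0.01). HYAL2 and HYAL3, hyaluronidase genes of these regions, had differences of 0.02 (95% interval -0.23 to 0.26) and 0.00 (-0.23 to 0.22), and HYAL1 was not analysed here. GNAI2, a G protein alpha subunit, differed by -0.49, with a 95% interval of -1.15 to 0.16. Among other hyaluronan genes, the proteoglycan VCAN (-1.21) and the hyaluronan receptor CD44 (-0.82) were at an unadjusted p under 0.05, with CEMIP2 (-0.18). CD44 was at 1.71 to 4.49 (median 1.91) against 2.01 to 4.57 (median 3.15), with B2 (4.49) apart from the other 6.

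Of the 20 tested coat colour and pigment genes 0 were at an unadjusted p under 0.05 (median -0.05). MC1R, the melanocortin receptor that sets red or black pigment, had 2.01 to 2.72 (median 2.33) against 2.02 to 2.79 (median 2.37), and a difference of -0.05 (95% interval -0.28 to 0.18). PMEL (-0.55) and MITF (-0.17), a melanosome protein and the regulator of pigment cells, had 95% intervals of -1.46 to 0.36 and -0.54 to 0.20. For body size, IGF1, the growth factor whose alleles separate small from large breeds, had a difference of -0.10 (95% interval -0.42 to 0.22), and 1 of 18 genes, FGF4, was at that p. Among 34 tested genes of hair follicle and coat type, KRT17 (-0.79), a keratin of the follicle and of stressed epidermis, was at an unadjusted p under 0.05, while KRT71 (0.04), a root sheath keratin tied to curly coats, was not, and FGF5, tied to hair length, was below the level filter. In the list of genes with copy number variation in dogs, SULT1C4, a sulfotransferase, had 1.33 to 1.69 (median 1.52) against 1.38 to 2.09 (median 1.84). All 7 values were thus below the level filter of 1.84. SULT1C4 passed that filter only through tumours outside the bulldog-mastiff type, so its p gives no support for a difference. Its difference of -0.30 ± 0.10 (SE) had the smallest unadjusted limma p of the trait lists, 0.00612, with an adjusted p of 0.881. PSMB4, a subunit of the proteasome core, had 2.01 to 2.85 (median 2.30) against 1.98 to 3.57 (median 2.87), with all 7 values below the retriever median. Its difference was -0.44 ± 0.19 (SE), with an unadjusted limma p of 0.0276.

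**Figure D5:**
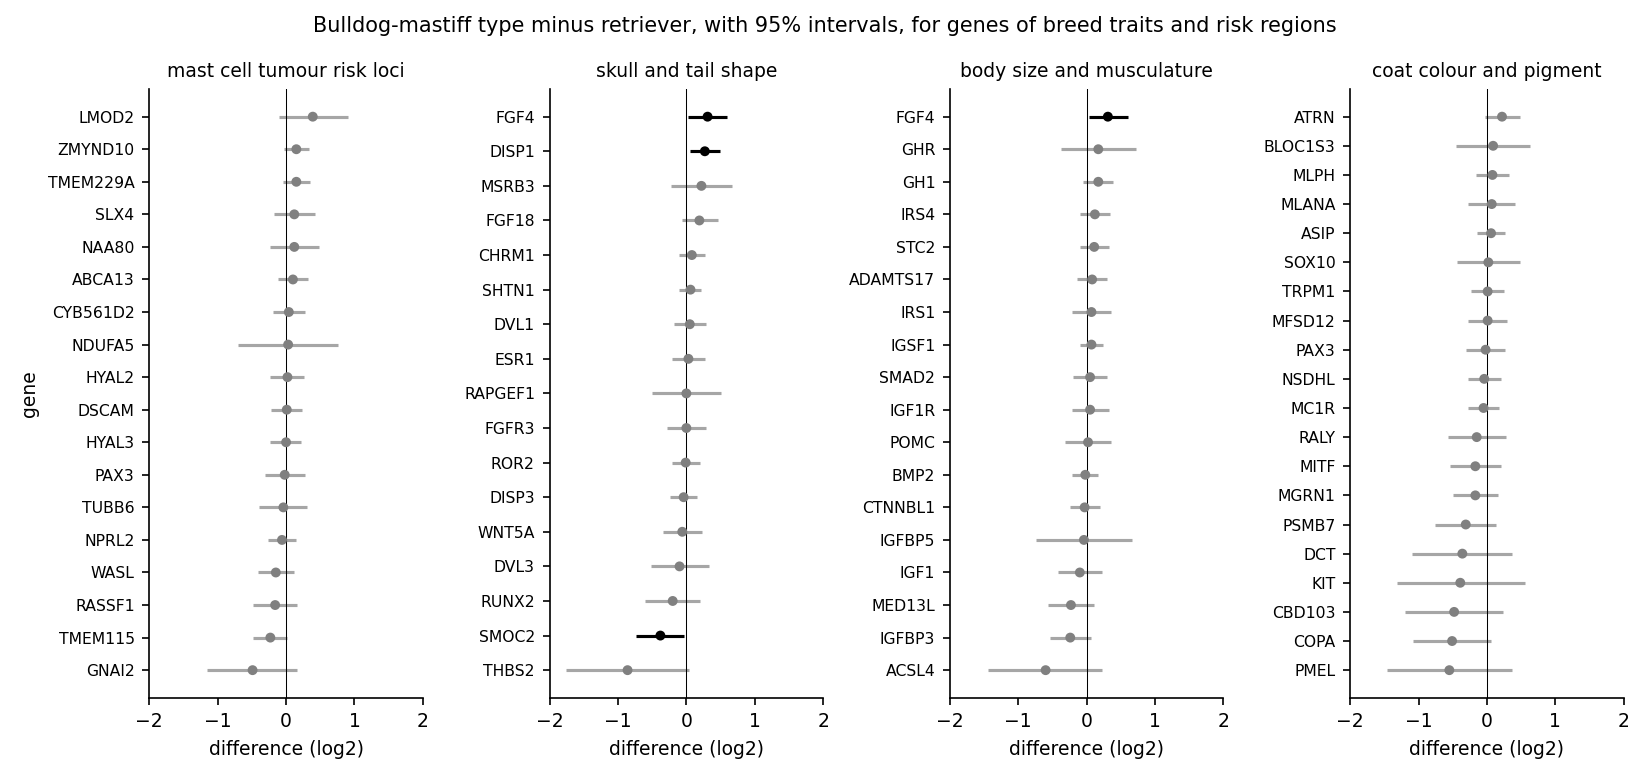
Difference between bulldog-mastiff type and retriever MCTs on the log2 scale (x axis) with its 95% interval for each tested gene (y axis) of 4 lists; black marks an unadjusted limma p under 0.05. Most points lie within 0.5 of 0, and the black ones are FGF4 (0.31, in both the skull and the body size list), DISP1 (0.27) and SMOC2 (-0.38).

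Within the metastasis groups no gene was called either. Limma called 0 clusters within the M MCTs (3 against 9), with 706 (3.67%) at an unadjusted p under 0.05, and 0 within the NM MCTs (4 against 6), with 517 (2.69%). At that p, 24 clusters differed the same way in both. The test of whether the breed type difference itself differed between M and NM MCTs called 0 clusters and gave 408 (2.12%) at an unadjusted p under 0.05. PPIB differed by -1.17 in M and by -0.98 in NM MCTs, and HSPA5 by -0.99 and -1.34. OTUD1 differed by 0.52 and 0.61. TMEM169 differed by 1.26 in M MCTs and by -0.04 in NM MCTs, with D1 (4.37) and SBT1 (4.33) as its highest values. Boxers against Labrador Retrievers alone gave 0 called clusters and 644 (3.35%) at an unadjusted p under 0.05.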

How the data were processed

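The authors extracted RNA from formalin-fixed tumours and hybridised it to canine gene arrays, and deposited RMA log2 values per Transcript cluster made with Affymetrix Expression Console 1.3, as the submitters' processing notes name it. The log2 values were used as deposited. Depth does not apply to arrays, and the number of tumours limits the precision. Clusters above the median of the table (1.84) in at least 30% of M or NM MCTs of all 34 tumours were tested, 19246 of 32391. Of these, 10691 had 1 gene symbol (10471 genes), 8352 none and 203 several in the platform annotation, which can be old, and 1528 shared all values with another cluster. Bulldog-mastiff type and retriever MCTs were compared with limma 3.58.1 in R 4.3.3, with metastasis group as covariate and Benjamini-Hochberg adjustment, and within M and NM MCTs with their interaction. The fit was tested on simulated data. Exact permutation of breed type within M and NM MCTs was two-sided over 46200 arrangements for 28 genes. Gene lists are described by counts and medians, with no test. Named were the 12 genes with the smallest p in each direction among differences of at least 0.5, up to 4 members per list with the smallest p, trait list members at an unadjusted p under 0.05, and KIT, SMOC2, BMP3, DVL2, MC1R, IGF1, FGF5 and HYAL1. A gene with several clusters is given by that with the highest mean. MB, BGN, COL3A1, CIITA, TAP1, TAP2, PSMB8, PSMB9, GNAI2, HYAL2, HYAL3, PMEL, MITF and KRT71 were named outside this rule, after their values were seen. The members and lists were chosen with earlier results of these data known. Age, sex and neutering came from the study's tables, matched by dog identifier. Arrays were hybridised in strips, but which tumours shared a strip is not given in the sources used here, so strip could not be tested. Alternatives concerned covariates, tumours and breeds left out, the level filter, the variance model, the normalisation and the test. Settings without B1 and B4, with the array SD or the muscle score as covariate, and without the 4 tumours richest in muscle genes were chosen after seeing the data. Tumours of other breeds entered only the level filter, the median correlation of each array, 1 alternative and the values named as theirs. No sequences are given, since no sequence reference was used here.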

Additional observations from a re-analysis of the deposited data

Results flagged for a closer look

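In the 7 bulldog-mastiff type MCTs, 218 values were examined (genes named and list means). Of these, 24 had 1 tumour far from the other 6 by Dixon's test. That test marks about 1 in 20 of independent normal values by chance. The values here are not independent, since named genes also enter list means, so the 24 cannot be set against that rate. The Boxer tumour B2 held most of them. It was high in epidermal and follicle genes, with a mean level of 4.73 for suprabasal and cornified keratinocyte genes (others 2.22 to 3.20), 3.66 for basal keratinocyte genes (others 2.10 to 2.77), 3.58 for desmosome genes, 3.39 for hair follicle genes, 3.3 for sebaceous and sweat gland genes and 2.53 for glutathione and xenobiotic enzymes. Of single genes, PERP, a desmosomal protein of epithelia, was at 6.43 in B2 (others 2.57 to 4.07) and SDC1, a proteoglycan of epithelia and plasma cells, at 5.6 (others 2.64 to 3.27). CD44 stood at 4.49, KRT17 at 4.46, S100A8 at 3.76, LHX2 at 3.31, S100A9 at 3.24, KRT33B at 2.82, ELOVL5 at 2.23 and CEMIP2 at 1.96, each above the other 6. B2 was below them in GSTT2B (1.89), CYP1A2 (1.39) and CCR3 (1.35). With the keratinocyte score as covariate, 926 clusters were at an unadjusted p under 0.05 and 0 were called. In other tumours, SBT1 was high in CRSP-2 (4.33, others 1.66 to 2.58), D1 in the Z-disc gene MYOZ3 (4.82, others 2.95 to 3.68) and B4 in the complement receptor gene C5AR1 (2.36, others 1.59 to 1.91). B1 was low in YWHAB (2.06, others 2.29 to 2.43) and SBT2 in the costimulatory gene CD86 (1.46, others 1.78 to 1.90).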

How the results depend on the processing

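Apart from the contrasts within M and NM MCTs and their interaction given below, limma called 0 clusters in every alternative fitted. These alternatives used the tumours of the comparison, a part of them or all 34 tumours. Their smallest adjusted p was 0.0613, without the Labrador tumours. At an unadjusted p under 0.05 limma gave 991 clusters (5.15%) with metastasis group as covariate. The count was 636 (3.3%) with the mast cell score and 630 (3.27%) with the array correlation as further covariate. With sex it was 1225 (6.36%), 751 of them higher and 474 lower. It was 1072 (5.57%) with age and 1061 (5.51%) with neutering. In NM MCTs only it was 496 (2.58%), and for Boxer against Labrador 644 (3.35%). It was 1530 of 32391 (4.72%) with no level filter and 532 of 9852 (5.4%) with the 75th percentile filter. Over clusters with 1 symbol it was 582 of 10691 (5.44%). It was 1550 (8.05%) with array weights, 643 (3.34%) without Boxer, 570 (2.96%) without Golden and 2769 (14.4%) without Labrador tumours. In settings chosen after seeing the data it was 620 without B1 and B4, 1884 with the muscle score and 2065 without the 4 tumours richest in muscle genes. Leaving out 1 tumour at a time gave 610 (without B4) to 1546 (without B2). Of these clusters 488 of the 991 had the lower mean, and the share was 16% without Boxer, 23.7% without B1 and B4, 34.2% with the array SD as covariate, 41.4% after repeated quantile normalisation and 64.7% with the 75th percentile filter. Within M MCTs, 1 unannotated cluster was called with no level filter (adjusted limma p of 0.0208), and leaving out 1 tumour gave 0 to 2 (2 unannotated clusters without D1, with a smallest adjusted limma p of 0.00516, and 1, MIR26B, without B1, with 0.029), with 0 to 1 for the difference between M and NM MCTs (1 without D1). Among list medians, that of ribosomal protein genes (-0.73) ran from -0.06 without B1 and B4 to -1.51 without the 4 muscle-rich tumours. The median of mitochondrial respiratory chain genes (0.08) was 0.42 with the array SD and -0.54 with the muscle score as covariate, where 19 of 29 were lower at an unadjusted p under 0.05. The median of heat shock genes (-0.05) was 0.18 with the array SD and -0.46 without the 4 muscle-rich tumours, where 16 of 16 means were lower and 6 at that p. The median of the neutrophil list was 0.01 with no level filter, and without the 4 muscle-rich tumours those of the risk loci and coat colour lists were 0.09 and -0.17. Of the named genes, TMEM169 turned direction, at -0.04 in NM MCTs only. The causes were not tested. No paired analysis was possible because the replicate numbers in the labels only number the tumours within M or NM, and each tumour is from a different dog.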
